A study of Mus musculus with 8 samples.

Results

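Oncofetal genes are genes that the fetal liver transcribes, that the adult liver largely shuts off after birth, and that many liver tumours switch on again. The rule named 10 fetal liver and tumour-associated genes under this heading, and not every one follows that whole pattern. They were the 3 members of the IGF2BP family (Igf2bp1, Igf2bp2, Igf2bp3), Lin28b, the long noncoding RNAs Meg3, Rian and H19, and the growth factor gene Igf2. The others were the genes of the fetal serum protein alpha-fetoprotein (Afp) and the cell surface proteoglycan glypican 3 (Gpc3). Of these 10 genes, 8 had a row among the 19642 genes of the count table, and Igf2bp1 and Lin28b were not analysed here. Some members were chosen by the difference in their counts between the genotypes of these same livers. Their fold changes between genotypes are therefore given as a description, without p-values.

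Whole-liver RNA was taken from 4 WT and 4 N-LKO mice fed chow (CD), with 1 library per mouse. N-LKO mice carry a liver-specific NgBR (Nus1) KO made by crossing loxP-flanked NgBR alleles with albumin-Cre, which is active in hepatocytes. The study names endothelial, stellate and Kupffer cells as examples of liver cells that express NgBR. Whether duct cells keep the gene is not given in the sources used here. All mice were male and on the C57BL6 background, and which floxed or Cre alleles the WT mice carried is not given in the sources used here. Diet time is uncertain, since titles state 8 weeks of CD but treatment entries state 16 weeks. The study's legend on mRNA of chow-fed livers gives the shorter time, whereas its lipid measurements in chow-fed mice followed longer feeding. Bulk RNA cannot tell more cells of a type from more RNA per cell.

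The IGF2BP proteins bind mRNAs, m6A-marked ones among them, and affect their stability, place in the cell and translation. Igf2bp1 and Igf2bp3 are typical of the embryo, whereas Igf2bp2 stays on in many adult tissues. LIN28B blocks the maturation of let-7 microRNAs, which in turn restrain Igf2bp and Hmga2 transcripts. Meg3 and Rian are made from the maternal copy of the imprinted Dlk1-Dio3 cluster, and H19 and Igf2 are imprinted in opposite directions, H19 from the maternal copy and Igf2 from the paternal one.

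The regions just before the start sites of Igf2bp3, Igf2bp2 and Meg3 are shown because these genes carried the differences described below. Each line holds the 250 bases before the RefSeq start (build GRCm38.p6), read 5′ to 3′ along the strand of the gene. Capitals mark the motifs spelled out after the sequences, on either strand. The Meg3 matches to the TATA motif on its 2 strands overlap.
Igf2bp3, chr6:49214955-49215204, minus strand: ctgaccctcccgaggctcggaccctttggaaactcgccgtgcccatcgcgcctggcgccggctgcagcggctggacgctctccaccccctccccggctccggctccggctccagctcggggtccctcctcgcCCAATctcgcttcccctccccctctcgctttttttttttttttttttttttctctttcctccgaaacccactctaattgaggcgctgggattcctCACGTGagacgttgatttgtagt
Igf2bp2, chr16:22163300-22163549, minus strand: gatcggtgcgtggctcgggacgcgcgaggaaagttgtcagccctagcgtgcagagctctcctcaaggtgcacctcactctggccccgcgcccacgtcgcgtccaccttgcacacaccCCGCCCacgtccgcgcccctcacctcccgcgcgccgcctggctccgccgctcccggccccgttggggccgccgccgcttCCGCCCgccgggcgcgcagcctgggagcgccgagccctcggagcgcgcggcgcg
Meg3, chr12:109540746-109540995, plus strand: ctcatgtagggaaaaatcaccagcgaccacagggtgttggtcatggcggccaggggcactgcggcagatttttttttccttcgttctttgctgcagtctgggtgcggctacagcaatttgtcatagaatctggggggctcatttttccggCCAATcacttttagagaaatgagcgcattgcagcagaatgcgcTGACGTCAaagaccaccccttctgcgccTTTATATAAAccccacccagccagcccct
The Igf2bp2 stretch held 40 CpG pairs and 2 GGGCGG boxes, and 32.7% of 32851 RefSeq promoter windows of this length hold at least 1. The Igf2bp3 stretch held 21 CpG pairs, 1 CCAAT box (33.8% of windows) and 1 E-box CACGTG (6.02% of windows). The Meg3 stretch held 10 CpG pairs, a CCAAT box, the TATA motif TATAAA (12.4% of windows) and the cAMP response element motif TGACGTCA, which 1.55% of windows hold. These matches describe the letters and do not show binding.

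Meg3, Rian and H19 are also hosts of microRNAs, and 1 mature sequence of each host is shown because the host counts below cannot be read as microRNA levels. Capitals mark the seed, bases 2 to 8.
mmu-miR-770-5p, in Meg3: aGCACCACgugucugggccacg
mmu-miR-370-3p, in Rian: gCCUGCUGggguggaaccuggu
mmu-miR-675-5p, in H19: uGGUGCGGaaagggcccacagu
The 3 seeds differ from each other. RefSeq places 3 mature microRNAs within Meg3, 6 within Rian and 2 within H19 on the host strand, and each of these microRNAs has a seed of its own within its host.

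The deposited values are estimated read counts, and totals ranged from 14688404 to 18585412 counts over the 8 livers. Levels are given as counts or as CPM (counts scaled to library size, with TMM factors), and 2 was the prior count on the log2 scale. Nus1, the deleted gene, averaged 88.2 ± 4.14 CPM in WT livers and 36.7 ± 2.57 CPM in N-LKO livers (SD, n = 4 each; log2 fold change -1.26, edgeR adjusted p = 3.06e-05), so the libraries matched their labels. Of 14214 genes that passed the filter on low counts, 148 were called at an adjusted p under 0.05, which is 1.04%. The share called higher in N-LKO livers was 0.823%, and the share called lower was 0.218%. In 7.52% of tested genes the 4 N-LKO livers did not overlap the 4 WT livers on the log2 CPM scale. Over the same 14214 genes DESeq2 called 371 and limma-voom 126. How many of all tested genes had an unadjusted p under 0.05 is not given here. Counts at that level below therefore have no background to be read against.

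Of the 8 oncofetal genes with a row, 6 passed the filter. Of these 6, 3 were in the set called higher (Igf2bp3, Meg3 and Rian) and 1 in the set called lower (Igf2bp2), and the same 4 did not overlap between genotypes. Afp and Gpc3 passed the filter and were not called. H19 and Igf2 did not pass it. Igf2bp3 and Rian had at least 10 counts in every N-LKO liver but not in every WT liver, and Igf2bp2 had them in every WT liver but not in every N-LKO liver, so these 3 reached the test through the genotype in which they were higher. Since the members were chosen partly for these differences, the counts of calls say nothing beyond the choice.

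**Figure D1:**
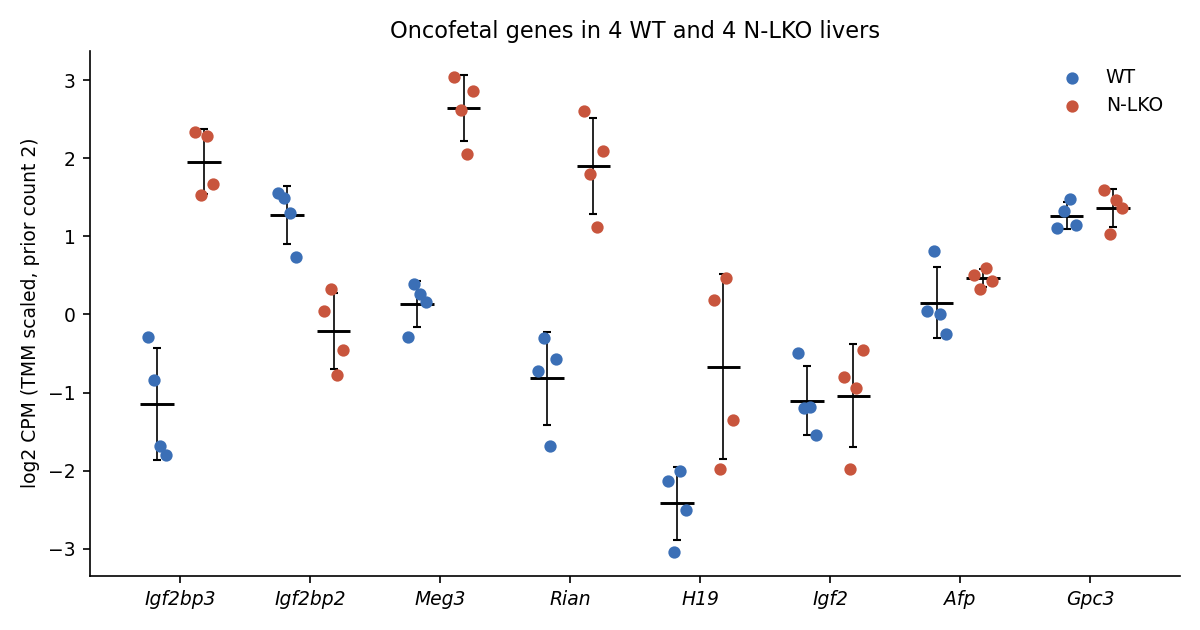
Level of the 8 oncofetal genes in each liver, as log2 CPM with a prior count of 2, with WT livers in blue and N-LKO livers in red. Points are livers, and black bars are the mean ± SD (n = 4). Igf2bp3, Meg3 and Rian were higher in each N-LKO liver, Igf2bp2 was lower in each, and Afp, Gpc3 and Igf2 overlapped.

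Within the IGF2BP family, Igf2bp3 was higher and Igf2bp2 was lower in N-LKO livers. Igf2bp3 (chromosome 6, 49085223 to 49214957, minus strand) encodes an RNA-binding protein of the embryo and of many tumours. It had 13, 7, 3 and 3 counts in WT replicates 1 to 4, and 87, 42, 72 and 45 counts in N-LKO replicates 1 to 4. Every N-LKO liver held at least 42 counts, whereas no WT liver held more than 13, and WT replicates 3 and 4 were at 3 counts. Its mean level was 0.372 ± 0.248 CPM in WT livers and 3.88 ± 1.13 CPM in N-LKO livers (SD, n = 4 each), a log2 fold change of 3.34 (standard error 0.389) or 10.1-fold. Ranked by the size of the rise, Igf2bp3 was number 5 of the 14214 tested genes. Members were chosen partly for such differences, so this place is a description only. At so few WT counts the fold change is known only roughly, and it lay between 3.09 and 3.86 when each liver was left out in turn.

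Igf2bp2 (chromosome 16, 22059009 to 22163299, minus strand) had 53, 43, 37 and 28 counts in the WT livers and 16, 17, 7 and 9 counts in the N-LKO livers. The lowest WT liver was above the highest N-LKO liver. The mean fell from 2.35 ± 0.576 CPM (SD, n = 4) to 0.776 ± 0.295 CPM (SD, n = 4), a log2 fold change of -1.58 (standard error 0.309). The call was lost with limma-voom, with the replicate block by library number, and when any of WT replicates 1, 2 and 3 or N-LKO replicates 1, 3 and 4 was left out, although the log2 fold change stayed between -1.80 and -1.41.

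Set against each other, the paralogs changed places. Igf2bp3 made up 19.7% of the counts of both genes in WT replicate 1 (95% Wilson interval 11.9% to 30.8%), 14.0% in replicate 2 (6.95% to 26.2%), 7.5% in replicate 3 (2.58% to 19.9%) and 9.68% in replicate 4 (3.35% to 24.9%). In the N-LKO livers its share was 84.5% in replicate 1 (76.2% to 90.2%), 71.2% in replicate 2 (58.6% to 81.2%), 91.1% in replicate 3 (82.8% to 95.6%) and 83.3% in replicate 4 (71.3% to 91.0%). The intervals, which cover counting error only, did not meet between genotypes. The mean share was 12.7% ± 5.38 in WT livers and 82.5% ± 8.29 in N-LKO livers (SD, n = 4 each). The log2 ratio of Igf2bp3 to Igf2bp2, with the prior count of 2, averaged -2.43 ± 0.468 in WT livers and 2.17 ± 0.758 in N-LKO livers (SD, n = 4 each). The summed level of both genes per length of exon moved less, from 0.363 ± 0.104 to 0.581 ± 0.128 CPM per kilobase (SD, n = 4 each), and its ranges overlapped, with 0.468 in WT replicate 1 and 0.457 in N-LKO replicate 4.

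**Figure D2:**
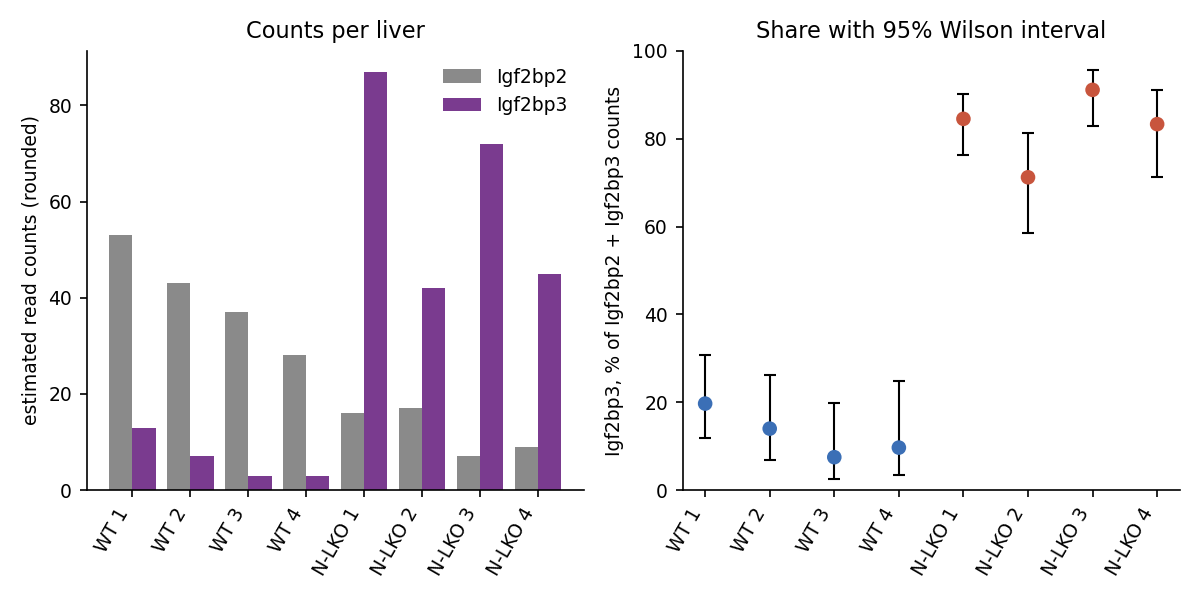
The left panel shows rounded read counts of Igf2bp2 (grey) and Igf2bp3 (purple) in each liver, and the right panel shows Igf2bp3 as a percentage of the counts of both genes, with 95% Wilson intervals, WT in blue and N-LKO in red. Igf2bp2 was the larger of the pair in all 4 WT livers and Igf2bp3 in all 4 N-LKO livers.

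The counts of Igf2bp3 are uncertain for another reason. Its exons share 1529 bases with those of Malsu1, a mitochondrial ribosome assembly gene on the opposite strand, and no source says that counting used strand. In 7 of 8 livers the values of both genes had decimals, yet their sum was whole within 0.01 in 8 of 8 livers, so reads were divided between the pair. Malsu1 averaged 7.80 ± 0.369 CPM in WT livers and 10.6 ± 1.99 CPM in N-LKO livers (SD, n = 4 each; log2 fold change 0.44, edgeR adjusted p = 0.197). The sum of both genes, which the division cannot move, was 7.62 to 8.75 CPM in WT and 10.8 to 17.7 CPM in N-LKO livers. It did not overlap, as was so for 7.52% of all tested genes. The sum cannot say which of the 2 genes the added reads came from. Malsu1 alone overlapped, with 8.32 CPM in WT replicate 2 and 7.99 CPM in N-LKO replicate 2.

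Both noncoding RNAs of the Dlk1-Dio3 cluster were higher in N-LKO livers. Meg3 (chromosome 12, 109541001 to 109571726, plus strand) is a lincRNA that is imprinted and often silenced in tumours. It had 13, 19, 17 and 18 counts in the WT livers and 143, 91, 61 and 105 counts in the N-LKO livers. The WT livers lay close together, and the lowest N-LKO liver was above each of them. The means were 0.988 ± 0.212 and 6.32 ± 1.74 CPM (SD, n = 4 each), a log2 fold change of 2.68 (standard error 0.256). The log2 fold change lay between 2.53 and 2.84 when each liver was left out in turn. A lincRNA on the opposite strand, Gm26906, lies wholly within Meg3 exons over 1228 bases, so reads of the pair cannot be told apart without strand.

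Rian, which starts downstream of Meg3 at position 109603808 and ends at 109661716, is a host of small nucleolar RNAs and microRNAs. It had 9, 11, 3 and 10 counts in the WT livers and 105, 51, 31 and 61 counts in the N-LKO livers. Again no N-LKO liver overlapped a WT liver. The means were 0.478 ± 0.210 and 3.88 ± 1.63 CPM (SD, n = 4 each), a log2 fold change of 3.00 (standard error 0.397). The N-LKO livers fell in the same order for Meg3 and for Rian, with replicate 1 highest at 8.11 and 5.95 CPM and replicate 3 lowest at 4.05 and 2.06 CPM. For each 100 counts of Meg3 there were 50.7 to 73.3 counts of Rian in the N-LKO livers and 54.2 to 69.2 in WT replicates 1, 2 and 4, with 17.6 in WT replicate 3, where Rian had 3 counts. The log2 ratio of Rian to Meg3, with the same prior count, averaged -0.95 ± 0.674 in WT livers and -0.74 ± 0.213 in N-LKO livers (SD, n = 4 each), a difference smaller than the spread.

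**Figure D3:**
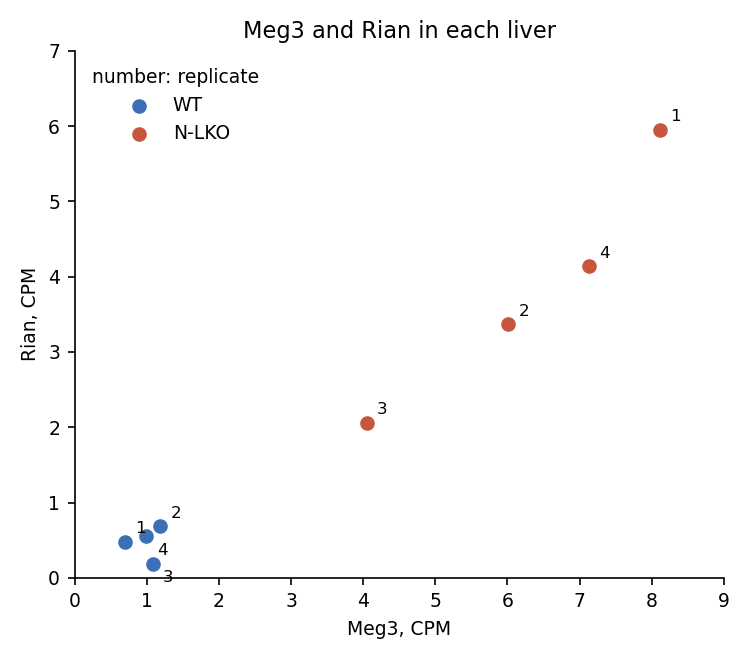
CPM of Meg3 (horizontal axis) and of Rian (vertical axis) in each liver, with WT livers in blue, N-LKO livers in red and replicate numbers beside the points. The 4 WT livers sit below 1.2 CPM of Meg3, and the 4 N-LKO livers run from replicate 3 to replicate 1 on both axes.

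The third noncoding host of the cluster, Mirg, did not pass the filter, with at most 4 counts in any liver, and a change in it was not detectable at this depth. Dlk1, the paternally expressed gene of the cluster, was not analysed here. Of 11 other genes tested within 1 Mb of the Meg3 start, 0 were called by edgeR, DESeq2 or limma-voom, with 2 at an unadjusted p under 0.05. Their log2 fold changes ran from -0.56 for Wdr25 to 0.34 for Wars. Of 26 other genes tested within 1 Mb of the Igf2bp3 start, 1 was called, Gpnmb. Gpnmb encodes a glycoprotein of lipid-laden macrophages, starts 178.4 kb downstream of the Igf2bp3 start, and had a log2 fold change of 3.47 (standard error 0.379, edgeR adjusted p = 0.00162). It was at 0.309 ± 0.178 CPM in WT and 3.60 ± 1.17 CPM in N-LKO livers (SD, n = 4 each). No WT liver held more than 9 counts of it, so Gpnmb reached the test through the N-LKO livers and its fold change is rough. Around Igf2bp2, edgeR called 0 of 23 genes, DESeq2 1 and limma-voom 0, and 2 had an unadjusted p under 0.05.

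**Figure D4:**
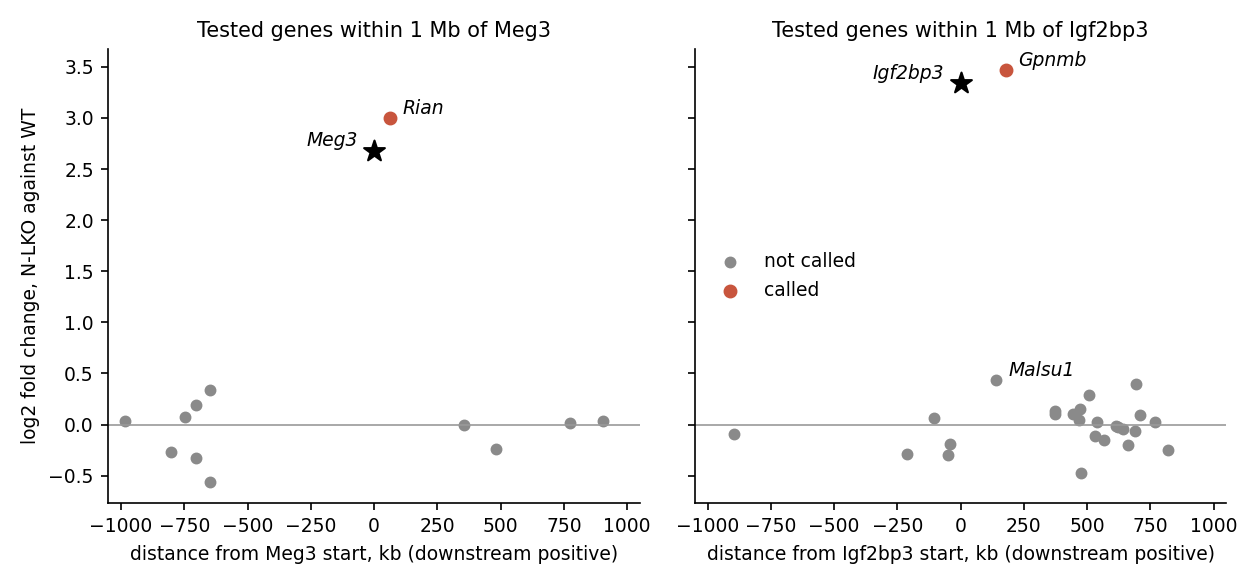
Log2 fold change, N-LKO against WT, of tested genes within 1 Mb of the start of Meg3 (left) and Igf2bp3 (right) against distance in kilobases along the strand of the gene. Stars are Meg3 and Igf2bp3, red points were called and grey points were not. Rian near Meg3 and Gpnmb near Igf2bp3 stand at 3.00 and 3.47, whereas Malsu1 is at 0.44.

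The members of the H19-Igf2 locus were near the limit of detection. H19 (chromosome 7, 142575529 to 142578143, minus strand) is among the most abundant transcripts of the fetal liver. It had 2, 0, 2 and 1 counts in the WT livers and 18, 2, 19 and 4 counts in the N-LKO livers. N-LKO replicates 1 and 3 stood above the rest, and N-LKO replicate 2 equalled WT replicates 1 and 3 in counts. The 0 counts of WT replicate 2 allow a level of up to 0.185 CPM (3 counts of its total). Scaled to library size, the lowest N-LKO liver (0.132 CPM) was just above the highest WT liver (0.127 CPM), a gap that 2 counts in either cannot resolve. Without the filter H19 had a log2 fold change of 3.08 and was not called. Igf2, which encodes the fetal insulin-like growth factor and lies on the same chromosome from 142650766 to 142666816 on the minus strand, had 11, 5, 5 and 4 counts in the WT livers and 8, 2, 6 and 9 in the N-LKO livers. The genotypes overlapped throughout, with 25 counts in total in each. Igf2 shares exon bases with Gm49394 on its own strand, so its few counts are uncertain too.

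The protein markers that are measured most often in liver cancer did not separate the genotypes. Afp (chromosome 5, 90490737 to 90508907, plus strand) had 17, 26, 14 and 13 counts in the WT livers and 23, 17, 21 and 18 counts in the N-LKO livers. WT replicate 2 was the highest of all 8 livers. The means were 1.03 ± 0.403 and 1.26 ± 0.116 CPM (SD, n = 4 each), and the log2 fold change of 0.29 was about the size of its standard error of 0.288. Without WT replicate 2 it was 0.59 (standard error 0.268), still not called. Gpc3 (chromosome X, 52272426 to 52613950, minus strand) binds growth factors at the cell surface. It had 38, 38, 42 and 38 counts in the WT livers and 51, 29, 40 and 36 counts in the N-LKO livers, and both the highest and the lowest of the 8 counts came from N-LKO mice. The log2 fold change of 0.12 was within its standard error of 0.192.

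Levels of different members can be compared per kilobase of annotated exon, here the union of all exons in GENCODE M21, which understates genes with many alternative exons such as Meg3 and Rian. In WT livers Gpc3 was highest at 0.852 ± 0.108 CPM per kilobase (SD, n = 4). Igf2bp2 (0.318 ± 0.0778) and Afp (0.307 ± 0.120) came next and did not differ beyond their spread. Igf2 (0.0628 ± 0.0277), Meg3 (0.0546 ± 0.0117) and Igf2bp3 (0.0456 ± 0.0304) followed, again within their spread, with H19 (0.0294 ± 0.0231) and Rian (0.0262 ± 0.0115) lowest. In N-LKO livers Gpc3 was still first at 0.920 ± 0.155 CPM per kilobase. Igf2bp3 was then at 0.476 ± 0.138, Afp at 0.374 ± 0.0344 and Meg3 at 0.350 ± 0.0964, a group within its own spread. H19 (0.273 ± 0.225) and Rian (0.213 ± 0.0893) came after them, whereas Igf2bp2 was at 0.105 ± 0.0399 and Igf2 at 0.0697 ± 0.0348 (SD, n = 4 each). For scale, Nus1 was at 18.1 ± 0.851 CPM per kilobase in WT livers, so every oncofetal gene was a low transcript in both genotypes.

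Genes that act with the members were taken from 9 lists, from which the members were left out. Of their 147 genes, 120 were tested, and 4 were called higher and 1 lower, which is 4.17% against 1.04% of all tested genes. The lists were written with earlier results of these livers known, so this share is a description. The median log2 fold change over the 120 genes was 0.037, beside -0.0033 over all tested genes.

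Of 18 tested genes that process let-7 or are its targets, 0 were called by edgeR, DESeq2 or limma-voom, and 0 had an unadjusted p under 0.05. The median was 0.028, and values ran from -0.31 for Arid3b (standard error 0.283) to 0.51 for Arid3a (standard error 0.287), both DNA-binding proteins. Neither LIN28 gene nor let-7 itself was analysed here, and Hmga2, the chromatin protein that let-7 restrains, had at most 6 counts in a WT liver and did not pass the filter. Among 15 m6A writers, erasers, readers and related RNA-binding proteins, 0 were called by edgeR, 5 had an unadjusted p under 0.05, 2 were called by DESeq2 and 0 by limma-voom. The median was -0.027. Zc3h13, a subunit of the m6A methyltransferase complex, had the lowest value at -0.36 (standard error 0.0857, edgeR adjusted p = 0.0849), and Ythdc2, a reader and helicase, had the highest at 0.42 (standard error 0.123, edgeR adjusted p = 0.163). Of 13 tested transcripts known to be bound by IGF2BP proteins, 0 were called by edgeR, DESeq2 or limma-voom, and 4 had an unadjusted p under 0.05. They ran from -0.28 for Actb (standard error 0.0919), the classic target of Igf2bp1, to 0.73 for Lamb2 (standard error 0.274).

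In the IGF axis, 1 of 17 tested genes was called by edgeR, 1 by DESeq2 and 0 by limma-voom, and 4 had an unadjusted p under 0.05. Igfbp7, a secreted binding protein made in quantity by vascular and stromal cells, rose from 27.4 ± 1.54 to 43.9 ± 8.94 CPM (SD, n = 4 each) (log2 fold change 0.68, standard error 0.133, edgeR adjusted p = 0.0393). Its call held in 3 of 8 other settings with all livers, being lost with limma-voom, library totals alone, at least 10 counts in every liver and both replicate blocks, and in each fit without 1 liver other than N-LKO replicate 1. Htra1 had the highest value of the list at 1.27 (standard error 0.421) and Igfbp1 the lowest at -1.01 (standard error 0.596), neither called. Igf1, the main postnatal growth factor of the liver, was at 566 ± 115 CPM in WT and 600 ± 67.3 CPM in N-LKO livers (SD, n = 4 each). Igf1r and Igf2r, the receptors, had log2 fold changes of 0.22 (standard error 0.161) and 0.026 (standard error 0.100).

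Of 21 tested imprinted growth genes outside the Dlk1-Dio3 cluster, 0 were called by edgeR, 3 had an unadjusted p under 0.05, 1 was called by DESeq2 and 0 by limma-voom, and 11 of 21 had positive log2 fold changes, with a median of 0.015. They ran from -0.96 for the noncoding RNA Kcnq1ot1 (standard error 0.274, edgeR adjusted p = 0.157) to 0.57 for the adaptor gene Grb10 (standard error 0.171, edgeR adjusted p = 0.179). Of the Dlk1-Dio3 neighbours on the list only Wars and Wdr25 were tested, with the values given above. Of these 2, 0 were called by edgeR, DESeq2 or limma-voom, and both were at an unadjusted p under 0.05.

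Among 13 transcription factors that repress or activate Afp, 1 was called, and 2 had an unadjusted p under 0.05. Zfhx3, which encodes the AFP repressor ATBF1, fell from 29.5 ± 1.78 to 18.2 ± 3.98 CPM (SD, n = 4 each) (log2 fold change -0.70, standard error 0.133, edgeR adjusted p = 0.0350). The genotypes did not overlap, with 27.8 CPM in the lowest WT liver. DESeq2 and limma-voom also called 1 gene of this list, but the edgeR call was lost with the replicate block by library number and in each fit without 1 liver other than N-LKO replicate 2. The other postnatal repressors, Zhx2 and Zbtb20, had log2 fold changes of -0.11 (standard error 0.109) and -0.31 (standard error 0.150) and were not called. Of 6 liver genes under the control of ZHX2, 0 were called by edgeR, 2 had an unadjusted p under 0.05, 1 was called by DESeq2 and 0 by limma-voom. All 6 had positive log2 fold changes, with Lpl, the lipoprotein lipase gene, at 0.60 (standard error 0.166, edgeR adjusted p = 0.152) and Cyp4a12a at 0.093 (standard error 0.253). The way in which ZHX2 acts on each gene was not considered, so the shared sign is a description only.

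The list of other fetal liver and liver tumour genes held most of the calls. Of 23 tested genes, 3 were called higher and 0 lower, with a median of 0.53. DESeq2 called 8 and limma-voom 2, and 13 had an unadjusted p under 0.05. Tff3, a secreted trefoil peptide, rose from 0.664 ± 0.339 to 3.59 ± 1.37 CPM (log2 fold change 2.42, standard error 0.397, edgeR adjusted p = 0.0167). It was at 0.331 CPM in the lowest WT liver and 1.78 CPM in the lowest N-LKO liver, so Tff3 reached the test through the N-LKO livers. Robo1, a guidance receptor, rose from 8.08 ± 0.248 to 24.8 ± 5.20 CPM (log2 fold change 1.62, standard error 0.138, edgeR adjusted p = 0.000332). Epcam, an adhesion protein of hepatoblasts and of bile duct cells, rose from 1.13 ± 0.222 to 3.32 ± 1.18 CPM (log2 fold change 1.55, standard error 0.285, edgeR adjusted p = 0.0293). Robo1 kept its call in every setting run. Tff3 was no longer tested with at least 10 counts in every liver. Its call was lost on leaving out N-LKO replicate 3 or either of WT replicates 3 and 4. Epcam was called only without N-LKO replicate 1 or N-LKO replicate 4 among the fits without 1 liver and lost its call with limma-voom and the replicate block by library number. The lowest value of the list was -0.58 for the replication gene Mcm2 (standard error 0.262), which was not called.

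**Figure D5:**
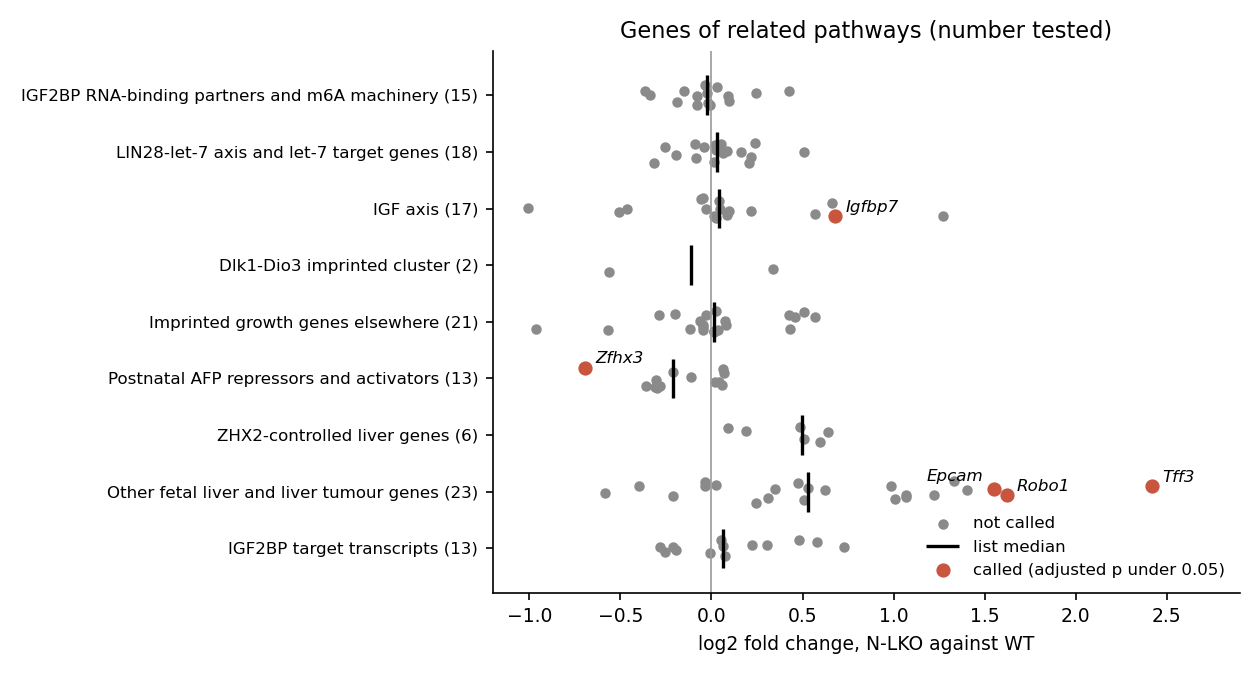
Log2 fold change, N-LKO against WT, of each tested gene (points) in 9 lists of genes related to the members, with the number tested in brackets and the list median as a black bar. The called genes, in red, are Igfbp7, Zfhx3, Tff3, Robo1 and Epcam, and the LIN28-let-7 genes centre on 0.028.

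Summed markers of fibroblasts and of duct cells differed between genotypes, whereas those of the other cell types overlapped. All 8 fibroblast markers had positive log2 fold changes, and edgeR called 3 of them (Col1a1, Lum and Pdgfra), DESeq2 5 and limma-voom 2. Col1a1 was near the threshold (edgeR adjusted p = 0.0444). The summed level of the fibroblast markers was 155 to 213 CPM in WT and 241 to 345 CPM in N-LKO livers. Of 8 cholangiocyte markers 7 had a row and 4 were tested, of which edgeR called 2 (Epcam and Spp1), DESeq2 3 and limma-voom 0. Spp1 was near the threshold too (edgeR adjusted p = 0.0353). The summed level of the cholangiocyte markers was 23.4 to 45.3 CPM in WT and 52.6 to 134 CPM in N-LKO livers. Neither sum overlapped between genotypes, but each was mostly 1 gene. Dcn, at 143 ± 18.9 CPM in WT and 193 ± 33.9 CPM in N-LKO livers, held most of the fibroblast sum and itself overlapped. Of the 8 fibroblast markers 5 did not overlap, beside 7.52% of all tested genes. Spp1, at 23.9 ± 6.99 and 68.1 ± 28.1 CPM (SD, n = 4 each), held most of the duct sum. Of the duct markers that were not called, Krt19 was at 0.375 to 0.748 CPM in WT and 0.815 to 1.06 CPM in N-LKO livers, and the chloride channel gene Cftr, with too few counts to be tested, at 0 to 0.331 and 0.567 to 1.53 CPM, neither overlapping. Sox9 (means 6.74 and 13.5 CPM), Krt7 (0.250 to 0.441 and 0.198 to 0.597 CPM) and Cldn7 (0.221 to 0.321 and 0.113 to 0.730 CPM) overlapped. Among 8 macrophage markers 1 was called, Gpnmb, and the summed level overlapped, at 92.1 to 162 CPM in WT and 102 to 163 CPM in N-LKO livers. Trem2, with too few counts to be tested, was at 0 to 0.125 CPM in WT and 0.407 to 0.737 CPM in N-LKO livers and did not overlap. The macrophage markers other than Gpnmb and Trem2 overlapped. The sums of the 6 hepatocyte markers (66000 to 94700 CPM in WT, 71000 to 86700 CPM in N-LKO livers), the 6 proliferation markers (5.90 to 8.11 against 6.18 to 8.43 CPM), the 6 endothelial markers (139 to 165 against 129 to 160 CPM) and the 6 stellate cell markers (66.9 to 103 against 72.2 to 110 CPM) overlapped. So did those of the 6 lymphocyte markers (1.56 to 2.70 against 1.39 to 2.10 CPM) and the 5 erythroid markers (58.9 to 553 against 58.0 to 295 CPM). No marker with a row was at 0 in all livers. The part of fibroblasts, duct cells and macrophages in the levels of Meg3, Rian, Igf2bp3, Tff3 and Epcam was not tested.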

How the data were processed

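Total RNA from 4 WT and 4 N-LKO livers was sequenced after rRNA removal. The deposited table holds expected counts (read counts that the authors' program estimated, with decimals) before any scaling to depth. The study's methods name trimming, TopHat2 and cuffdiff, and the submitters' processing notes name STAR, Partek and mm9. Which program gave the counts is not given in the sources used here. Gene starts matched GENCODE M21 (GRCm38) for 99.5% of 19160 symbols, and GRCm38 coordinates are printed.

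Samples were grouped by their titles. Counts were rounded, filtered by filterByExpr (minimum count 10, minimum total 15), given TMM factors and tested in R 4.3.3 with edgeR 4.0.16 (glmQLFit, glmQLFTest, genotype as the only term, Benjamini-Hochberg over 14214 genes). The script was tested on simulated data. Standard errors were derived from the fold change and its F statistic. Alternatives were RLE scaling, library totals, no filter, at least 10 counts in every liver, DESeq2 1.42.0, limma-voom (limma 3.58.1), 2 blocks, a prior count of 0.5 and each liver left out. Totals of 14688404 to 18585412 counts leave genes near 3 counts imprecise.

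The members, lists and naming rule were chosen with earlier results of these data known. Named were the members, Nus1, called list genes, the highest and lowest gene of each list, set regulators, neighbours and, for Igf2bp3 and Meg3, the 3 genes most alike. The results for 3 genes of that rule are not reported here. Hmga2, Igf1, Igf1r, Igf2r, Lpl, Krt7, Krt19, Cftr, Sox9, Cldn7, Dcn and Trem2 were named after their values were seen.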

Additional observations from a re-analysis of the deposited data

Results flagged for a closer look

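Single livers distant from the remaining 3 of a genotype were sought in 40 sets of 4 values, made of the 8 members, Nus1 and the ratios of Igf2bp3 to Igf2bp2 and of Rian to Meg3. The 2 sets found are the same measurement on 2 scales, and chance gives about 2 of 40. Nus1 in WT replicate 1 was at 6.36 log2 CPM and 82.0 CPM, below the other WT livers. The log2 fold change of Nus1 stayed between -1.30 and -1.22 when each liver was left out in turn. No liver stood apart in this sense for any of the 8 oncofetal genes.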

How the results depend on the processing

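The direction of the 6 tested members and of Nus1 was the same in every setting that gave a value. With at least 10 counts in every liver, 98 genes were called in place of 148, of which 1 was a member (Meg3) in place of 4, since Igf2bp2, Igf2bp3 and Rian were no longer tested, and 3 genes of the lists were called in place of 5. DESeq2 called 371 genes, 66.8% of them higher in place of 79.1%, and 14 genes of the lists. Limma-voom called 3 genes of the lists. The cause of these differences was not tested. Without 1 liver, 71 to 173 genes were called, 3 to 4 members and 1 to 6 genes of the lists. Fewer than 99 genes were called without WT replicate 2 (83), WT replicate 3 (91), WT replicate 4 (71) and N-LKO replicate 3 (76). Over the lists, 2 genes were called without WT replicate 1, 2 or 3, 1 without WT replicate 4 or N-LKO replicate 3, and 3 without N-LKO replicate 4. The difference in the log2 ratio of Igf2bp3 to Igf2bp2 was 4.60 and became 5.05 with a prior count of 0.5. Replicate numbers did not pair the livers, with residual correlations of -0.085 to 0.063 by title and -0.0092 to 0.17 by library number. With the replicate block by title 131 genes were called and by library number 113, of which 3 were members (Igf2bp2 was not) and 2 genes of the lists.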

Other observations

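Likeness in log2 CPM was taken over all 8 livers together, after centring each liver on its genotype mean. The 3 genes most like Igf2bp3 included Csrnp1 and Gnl2. Those most like Meg3 were Rrp8, Sltm and Rrp12, out of 13166 genes whose mean over 8 livers reached 1 CPM. None of these 5 genes was called between genotypes. Among 13166 genes and only 8 livers a close likeness can arise by chance, and Igf2bp3 had only 3 to 13 counts in the WT livers. Rian stood at place 1350 of 13166 by its likeness to Meg3, and WT replicate 3, with 3 counts of Rian, enters this value.

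Other genes within 1 Mb of the remaining members were also tested. Around Afp 0 of 12 were called by edgeR, DESeq2 or limma-voom, with 2 at an unadjusted p under 0.05. Around Gpc3 0 of 8 were called by any of these tools, with 1 at an unadjusted p under 0.05. Around H19 0 of 15 were called by edgeR and limma-voom and 1 by DESeq2, with 1 at an unadjusted p under 0.05.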
